A study of Mus musculus with 6 samples.

Results

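The 10 core genes of polyamine metabolism described here (Odc1, Srm, Sms, Amd1, Azin1, Oaz1, Oaz2, Sat1, Smox and Paox) were chosen by name, from the 21883 protein-coding genes in the RefSeq table of the mouse assembly GRCm38.p6. c-Myc was mapped by ChIP-seq (sequencing of DNA pulled down with an antibody to c-Myc) in PB115, PB119 and PB120, which the series calls lung cancer lines. Each line gave 1 c-Myc ChIP library and 1 input library, which is chromatin without the pull-down. The sources used here do not give the strain, genotype or tumour of origin of the lines, and peak lists hold no expression by which a cell type could be checked. All libraries were fixed and sheared in the same way per the labels, and no treatment of the cells is named in the sample records used here.

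Polyamines are small, positively charged molecules that cells need for growth, and c-Myc, a transcription factor that pairs with Max on DNA, is known for acting on their synthesis. Ornithine decarboxylase (Odc1) makes putrescine, and spermidine synthase (Srm) and spermine synthase (Sms) extend it with groups supplied by S-adenosylmethionine decarboxylase (Amd1). The antizymes (Oaz1, Oaz2) bind ornithine decarboxylase and send it to the proteasome, and the antizyme inhibitor (Azin1) takes antizyme away from it. Breakdown runs through an acetyltransferase (Sat1) and the oxidases of spermine (Smox) and of acetylated polyamines (Paox).

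The authors' lists, 1 per line, numbered 7830 peaks in PB115 and 13527 in PB119 but 5168 in PB120, called against the input of the same line. ChIP depth was 40494386, 40726886 and 32299364 tags in that order. Per peak the lists give a summit, the height there and a fold, which is height over local input. Heights were turned back into whole ChIP fragments. There were no replicates, so no value has an error between libraries, and intervals below are exact 95% Poisson intervals that cover counting error only. The weakest listed summits held 24 fragments in PB115 and 19 in PB119, with 21 in PB120, and weaker binding than that was not listed. Calls also depend on the local input, so an unlisted site may hold more fragments than these. A gene is called bound where a summit lies within 1000 bp of either of its annotated ends.

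Of the 4 synthesis genes, Odc1, Srm and Amd1 were bound in every line. None of the 3 breakdown genes was, which for so few genes is near the share of 14.4% over all coding genes. The difference between these groups was not tested. PB119 had 8 of the 10 genes bound, PB115 had 6 and PB120 had 4. The share of all coding genes called in the same way was 35.3% in PB119, 23.6% in PB115 and 16.4% in PB120. Odc1, Amd1, Srm and Azin1 were bound in all 3 lines, a call that 14.4% of coding genes had. Sat1 and Paox were bound in PB115 and PB119, and Sms and Oaz1 in PB119. Oaz2 and Smox were bound in no line. With each list cut to its highest folds at the length of the PB120 list, PB119 had 5 of the genes bound while PB115 and PB120 had 4 each, and Sat1, Sms and Oaz1 were bound in none. Counting summits anywhere inside a gene added no member, while it raised the share of all coding genes to 28.8% in PB115 against 42.2% in PB119 and 20.1% in PB120. Over the bound members the median of the highest fold was 12.7 in PB115 and 16.4 in PB119, with 9.89 in PB120, and over all bound coding genes it was 10.4, 11.6 and 9.23.

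**Figure D1:**
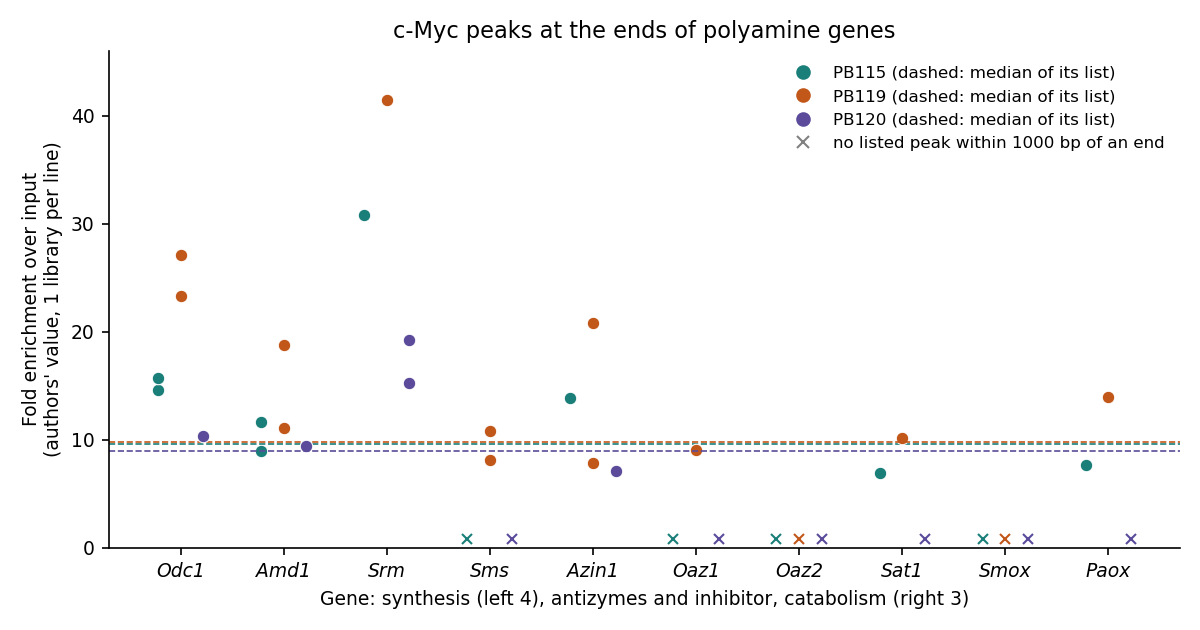
Fold enrichment over input (y axis, authors' values) of each peak within 1000 bp of an end of the 10 polyamine genes (x axis), with 1 point per peak, colours for the 3 lines and crosses where a line listed no such peak. Srm stands highest in every line, from 19.2 in PB120 to 41.5 in PB119, and Oaz2 and Smox have crosses in all 3 lines.

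In all, 34 peaks were assigned to these genes. Of these, 25 lay within 1000 bp of an end, 2 lay deeper inside Amd1, and 7 lay outside with Azin1 as the nearest coding gene. PB115 had 11 of them, PB119 had 17 and PB120 had 6. Where the lists overlapped they formed 17 regions, of which 12 lay at gene ends. At the gene ends 4 regions had a peak in all 3 lines, 4 in PB115 and PB119, and 4 in PB119 alone. No region at these genes was listed by PB120 without PB119, which was rare over the whole lists too. There, 97.4% of 1963 PB120 summits up to 1000 bp upstream of an annotated coding start overlapped a PB119 peak. For the 991 downstream summits the share was 98.4%. Of the PB119 summits placed in this way, 62.5% of 3532 upstream and 54.3% of 3897 downstream overlapped a PB115 peak.

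The bases just before an annotated start are shown for the genes whose promoter summits the results turn on, with Oaz2 as a gene without a peak. They are the 250 bases upstream of the start in RefSeq GRCm38.p6, read 5′ to 3′ on the strand of the gene. Capitals mark E-box words that Myc and Max are known to bind: the canonical word CACGTG, which reads the same on both strands, then the variant CACGCG (on the other strand CGCGTG), the variant CATGTG (on the other strand CACATG) and the variant CACGAG (on the other strand CTCGTG). None of these 4 words overlap in the runs shown. Of the 10 genes, 8 matched the promoter table, with 10 windows between them. Srm and Azin1 were not matched.
Odc1, chr12:17544623-17544872, plus strand: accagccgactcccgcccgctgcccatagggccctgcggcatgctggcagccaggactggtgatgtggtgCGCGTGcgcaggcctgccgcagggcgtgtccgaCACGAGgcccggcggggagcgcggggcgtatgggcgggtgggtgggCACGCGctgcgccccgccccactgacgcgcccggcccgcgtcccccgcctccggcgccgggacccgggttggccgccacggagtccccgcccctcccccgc
Amd1, chr10:40302189-40302438, minus strand: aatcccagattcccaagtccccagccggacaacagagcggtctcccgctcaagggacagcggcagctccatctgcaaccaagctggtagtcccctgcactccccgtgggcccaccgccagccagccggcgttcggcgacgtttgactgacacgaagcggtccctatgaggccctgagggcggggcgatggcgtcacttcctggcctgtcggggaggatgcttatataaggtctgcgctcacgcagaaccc
Sms, outer start, chrX:157492288-157492537, minus strand: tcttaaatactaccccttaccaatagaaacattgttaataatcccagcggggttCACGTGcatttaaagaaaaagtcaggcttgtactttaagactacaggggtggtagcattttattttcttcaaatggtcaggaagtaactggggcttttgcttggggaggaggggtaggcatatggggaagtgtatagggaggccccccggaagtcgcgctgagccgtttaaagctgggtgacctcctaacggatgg
Sms, inner start, chrX:157491369-157491618, minus strand: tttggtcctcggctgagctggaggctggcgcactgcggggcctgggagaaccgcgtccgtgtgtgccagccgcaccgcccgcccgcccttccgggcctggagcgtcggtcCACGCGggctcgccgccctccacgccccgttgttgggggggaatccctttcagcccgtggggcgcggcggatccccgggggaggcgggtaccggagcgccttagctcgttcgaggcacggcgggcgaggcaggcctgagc
Oaz1, chr10:80826406-80826655, plus strand: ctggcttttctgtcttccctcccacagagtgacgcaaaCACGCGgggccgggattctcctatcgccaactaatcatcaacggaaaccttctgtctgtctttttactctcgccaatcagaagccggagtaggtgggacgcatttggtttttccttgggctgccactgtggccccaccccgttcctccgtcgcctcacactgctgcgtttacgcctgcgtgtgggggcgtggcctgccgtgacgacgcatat
Sat1, chrX:155216450-155216699, minus strand: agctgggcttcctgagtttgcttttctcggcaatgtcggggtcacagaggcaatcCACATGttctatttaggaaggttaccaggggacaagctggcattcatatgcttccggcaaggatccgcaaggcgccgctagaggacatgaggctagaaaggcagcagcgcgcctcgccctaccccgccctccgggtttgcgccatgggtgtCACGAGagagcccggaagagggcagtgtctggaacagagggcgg
Oaz2, chr9:65676298-65676547, plus strand: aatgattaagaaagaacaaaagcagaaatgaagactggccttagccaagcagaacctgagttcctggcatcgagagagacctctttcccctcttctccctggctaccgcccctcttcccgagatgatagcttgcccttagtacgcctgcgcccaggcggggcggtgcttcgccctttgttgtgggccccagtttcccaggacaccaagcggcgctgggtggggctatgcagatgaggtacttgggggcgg

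Counting bases from 1 at the 5′ end of each run, the upstream summits at Odc1 fell on base 16 in PB115 against base 34 in PB119 and base 58 in PB120. The run holds CGCGTG at bases 71 to 76, CACGAG at 104 to 109 and CACGCG at 150 to 155. It has 35 CG steps, more than 96.2% of the 21262 coding promoter windows of the same length, whose median was 10. The Amd1 run holds none of the 4 words, although all 3 lines had a summit in it, at base 61 in PB115 and 44 in PB119, with 150 in PB120. CACGTG was found in 1 of the 10 windows, the outer start of Sms at bases 55 to 60, and no list had a summit in that run. The inner Sms run has the PB119 summit on base 58 and CACGCG at bases 111 to 116. Oaz1 had its PB119 summit on base 177 and CACGCG at 39 to 44. In the Sat1 run the summits fell on base 181 in PB115 and 162 in PB119, with CACATG at 56 to 61 and CACGAG at 207 to 212. The Oaz2, Smox and Paox windows hold none of the words. Of all coding windows 6.63% hold CACGTG, 9.99% CACGCG, 10.1% CATGTG and 5.90% CACGAG, and 28.8% hold any of the 4. These matches are letters in a window and not evidence of contact. The inner summits of Odc1 and Amd1 lay outside these windows, and Srm and Azin1 had none, so the bases at those sites were not searched.

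Odc1 encodes the enzyme that opens polyamine synthesis, and it carried c-Myc at an outer and an inner site. The gene spans chr12:17544808-17551502. The outer summit lay outside the gene, 170 bp from its end in PB115 against 152 bp in PB119 and 128 bp in PB120. It held 59 fragments in PB115 (95% interval 44.9 to 76.1) and 86 in PB119 (68.8 to 106), with 34 in PB120 (23.5 to 47.5). The folds there were 14.6, 23.3 and 10.3, which rank 1229 of 7830, 775 of 13527 and 1674 of 5168. The inner summit lay 485 bp inside the gene in PB115 and 413 bp inside in PB119. It held 63 fragments in PB115 (48.4 to 80.6) and 101 in PB119 (82.3 to 123), with folds of 15.8 and 27.1. Both inner summits also lay within 1000 bp of Gm22748, a small nucleolar RNA gene. The inner site was the higher by fold in both of these lines, with overlapping fragment intervals, and it was not listed in PB120. Of the PB119 peaks within 10% of its fold, 339 of 372 (91.1%) overlapped a PB120 peak. Of the PB115 peaks within 10% of its fold there, 498 of 630 (79%) did.

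Amd1, whose enzyme supplies the groups that turn putrescine into spermidine and spermine, had 3 separate sites in PB115 and PB119. The gene spans chr10:40287458-40302188, and the start lies at its upper end. The promoter summit, 190 bp outside in PB115 against 207 bp in PB119 and 101 bp in PB120, held 35 fragments (24.4 to 48.7), 40 (28.6 to 54.5) and 30 (20.2 to 42.8). These intervals overlapped widely, and the folds were 8.95, 11.1 and 9.43. A second site inside the gene, 558 bp from the end in PB115 and 561 bp in PB119, held 49 fragments (36.3 to 64.8) and 72 (56.3 to 90.7), with folds of 11.6 and 18.8. The deepest site, at 1418 bp and 1423 bp and so beyond the 1000 bp limit, held 93 fragments (75.1 to 114) and 92 (74.2 to 113). It was the tallest of the Amd1 sites in fragments, yet its folds of 11 and 17.4 were below those of the second site. Local input background at the deepest site was 3.11 times the genome-wide level in PB115 and 2.02 times in PB119, against 1.27 and 1.32 times at the second site.

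PB120 listed the promoter site of Amd1 and neither of the inner sites, although the promoter site was the weakest of the 3 in the other lines. Overlap with a PB120 peak was found for 73.3% of 860 PB119 peaks of like fold to the second site (within 10%), and for 63.5% of 998 of like fold to the deepest. For the promoter site, which PB120 did list, the share was 27.5% of 2168. Among PB115 peaks of like fold the shares were lower for the inner sites, 56.6% of 1320 for the second and 51.8% of 1432 for the deepest. For the promoter site the PB115 share was 35.5% of 1914. Odc1 and Amd1 thus had their outer site listed in all lines and their inner sites in PB115 and PB119. Over the whole lists, among PB119 summits within 1000 bp of the nearest annotated start of a coding gene, 45.6% of 3532 upstream summits overlapped a PB120 peak, and 29.7% of 3897 downstream summits did. The shares of PB115 were 61.1% of 2368 and 46% of 2260. PB120 itself listed 1963 upstream and 991 downstream summits. No test was made, since there is 1 library per line.

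**Figure D2:**
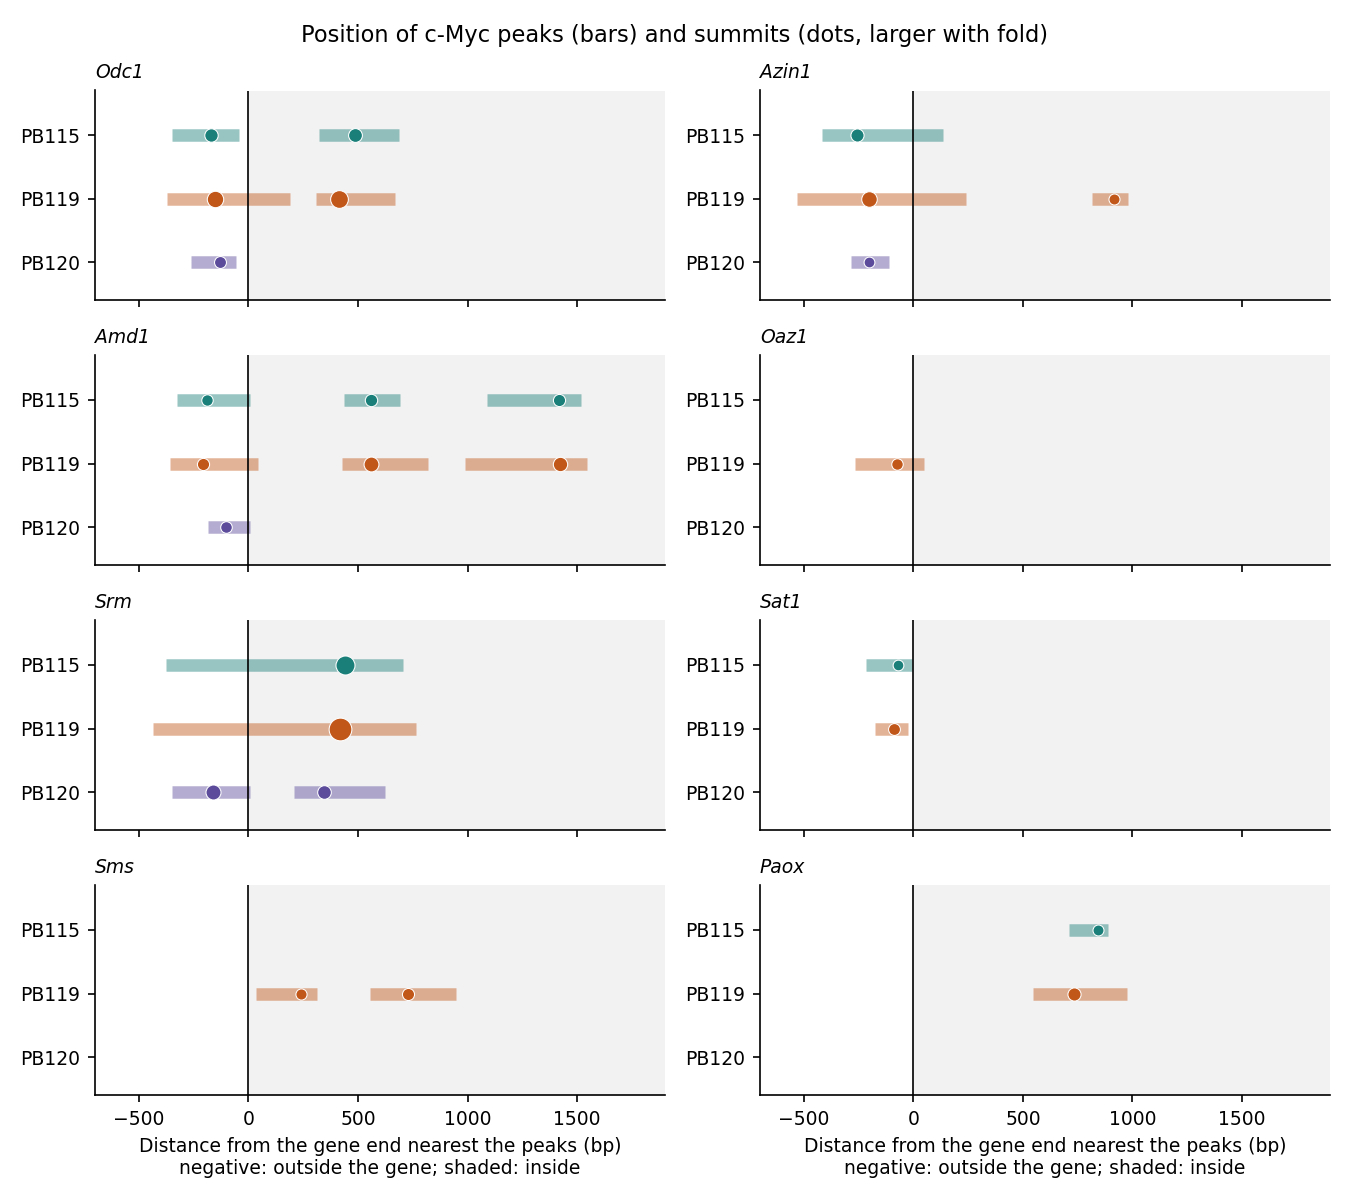
Peaks (bars) and summits (dots, larger with fold) by line, against distance in bp from the gene end nearest the peaks, with the inside of the gene shaded, for the 8 genes with a listed peak near an end. PB120 has the outer peak of Odc1 and Amd1 and no inner one, and it divides the broad Srm peak of the other lines into an outer and an inner peak.

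Srm, the spermidine synthase gene, was the strongest of the members in each line. It spans chr4:148591513-148594619. In PB115 a single peak of 1082 bp had its summit 440 bp inside the gene, with 132 fragments (110 to 157) and rank 54 of 7830 by fold. In PB119 a peak of 1200 bp had its summit 420 bp inside, with 150 fragments (127 to 176) and rank 44 of 13527. PB120 had a pair of peaks in place of 1. Its higher summit lay 160 bp outside the gene with 73 fragments (57.2 to 91.8), and the lower one 344 bp inside with 57 fragments (43.2 to 73.9). The highest point of binding thus lay inside the gene in PB115 and PB119 and outside it in PB120, where the fragment intervals of the summits overlapped. The PB120 folds were 19.2 and 15.3, at ranks 149 and 413 of 5168.

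Sms, the spermine synthase gene, was bound in PB119 alone, and weakly. The gene lies on the X chromosome at chrX:157443851-157492287. Its PB119 summits lay 726 bp and 241 bp inside the upper end, with 34 fragments (23.5 to 47.5) and 25 fragments (16.2 to 36.9). The folds were 10.8 and 8.15, ranks 5572 and 9429 of 13527. The first of these sits 193 bp upstream of the inner annotated start. Of the PB119 peaks of like fold to it, 59.0% of 2253 overlapped a PB115 peak and 26.9% a PB120 peak. The nearest listed summit to either end of Sms was 105444 bp away in PB115 and 2462262 bp away in PB120.

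Azin1, the antizyme inhibitor gene, was the only member of the antizyme group bound in all 3 lines. It spans chr15:38487430-38519294. The summit outside its upper end, at 255 bp in PB115 and 204 bp in PB119, with 202 bp in PB120, held 70 fragments (54.6 to 88.4), 88 (70.6 to 108) and 34 (23.5 to 47.5). Per 10000000 ChIP tags these were 17.3 (13.5 to 21.8), 21.6 (17.3 to 26.6) and 10.5 (7.29 to 14.7), so the PB120 interval overlapped that of PB115 and not that of PB119. Folds were 13.8, 20.8 and 7.13, and the PB120 peak ranked 4073 of 5168 in its list. PB119 had a further weak peak 915 bp inside the gene with 30 fragments (20.2 to 42.8) and a fold of 7.82, near the 1000 bp limit.

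A group of sites lay beyond the lower end of Azin1 with no coding gene closer. At about the same place in every line, 13700 bp from the end in PB115 against 13660 bp in PB119 and 13694 bp in PB120, a summit held 45 fragments (32.8 to 60.2), 41 (29.4 to 55.6) and 30 (20.2 to 42.8). The intervals overlapped, and the folds were 10.1, 10.3 and 8.0. In PB120 this distant site had a higher fold than the promoter site with fewer fragments, 30 against 34, and local input background there was 1.5 times the genome-wide level against 2.08 times at the promoter. In PB115 and PB119 it had the lower fold. The summit lies inside Gm41308, a long noncoding RNA gene, or within 1000 bp of it, so the nearest gene of any kind is not Azin1. A broader peak at 16368 bp in PB115 and 16346 bp in PB119 held 54 fragments (40.6 to 70.5) and 55 (41.4 to 71.6) and was not listed in PB120. PB119 alone had peaks at 28964 bp and 55606 bp, with folds of 8.09 and 7.66.

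Of the antizyme genes themselves, Oaz1 was bound in PB119 and Oaz2 in no line. The shares over all coding genes were 35.3% in PB119, 23.6% in PB115 and 16.4% in PB120. With so few genes, no difference from these shares can be read. Oaz1 had a PB119 summit 74 bp outside the gene, which spans chr10:80826656-80829290. It held 33 fragments (22.7 to 46.3), with a fold of 9.09 and rank 7772 of 13527. Among PB119 peaks of like fold, 34.3% of 2820 overlapped a PB115 peak and 17.8% a PB120 peak, and the Oaz1 peak overlapped neither. The nearest listed summit was 14836 bp away in PB115 and 19168 bp in PB120, closest to other coding genes. For Oaz2 the nearest summit lay 137525 bp from an end in PB115 and 45615 bp in PB119, with 137525 bp in PB120.

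Sat1, the acetyltransferase that starts polyamine breakdown, had a weak promoter peak in PB115 and PB119. The gene lies at chrX:155213126-155216449. The summit was 70 bp outside the gene in PB115 with 38 fragments (26.9 to 52.2) and a fold of 6.91, rank 6875 of 7830. In PB119 it was 89 bp outside with 32 fragments (21.9 to 45.2) and a fold of 10.1, rank 6356 of 13527. The fold was higher in PB119 while the fragments were not. Local input background was 1.87 times the genome-wide level in PB115 and 1.03 times in PB119. Both Sat1 and Sms are X-linked, and on the X chromosome 5.69% of coding genes were bound in PB115 against 12.1% in PB119 and 2.59% in PB120, compared with 24.8%, 36.8% and 17.3% on the autosomes. The part of this in the Sat1 and Sms values was not tested.

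Of the oxidase genes, Smox had no summit closer than 147169 bp in any list, the distance in PB119. Paox was called in PB115 and PB119 by a summit 844 bp and 735 bp inside its lower annotated end, at chr7:140115735-140134334. These summits held 33 fragments (22.7 to 46.3) and 56 (42.3 to 72.7), with folds of 7.64 and 13.9. These Paox summits lay 158 bp and 49 bp from the annotated start of Echs1, an enzyme gene of mitochondrial fatty acid breakdown that overlaps this end. The start sites of Paox in the promoter table were 9078 bp and 9187 bp away at the nearest. The Paox call therefore belongs to a summit that cannot be told apart from one at Echs1. Counting summits within 1000 bp of an annotated start, possible for 8 of the 10 genes, left Odc1, Amd1 and Sat1 bound in PB115 and these and Sms and Oaz1 in PB119, with Odc1 and Amd1 in PB120. By that rule 25.8% of the coding genes in the promoter table were bound in PB115 against 38.0% in PB119 and 17.6% in PB120.

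To set the lines side by side, fragments at the tallest summit of each common region were divided by ChIP depth, as fragments per 10000000 ChIP tags. Pull-down efficiency is not corrected by this, so each ratio is given beside the median over all common regions. The median ratio of PB119 to PB115 was 1.13 over 7250 regions (quartiles 1.01 to 1.27). Among the 11 regions of these genes in that comparison, Paox, Odc1 and the second Amd1 site had the highest ratios. The inner Odc1 site had 24.8 against 15.6 fragments per 10000000 tags, a ratio of 1.59 (exact 95% interval 1.15 to 2.22), larger than at 97.8% of common regions. The outer Odc1 site had a ratio of 1.45 (1.03 to 2.05), larger than at 93.0%. The summit shared by Paox and Echs1 had 1.69 (1.08 to 2.68), larger than at 99.1%, and the second Amd1 site 1.46 (1.00 to 2.15), larger than at 93.6%. Srm lay at the median with 1.13 (0.888 to 1.44), and Sat1 below it with 0.837 (0.506 to 1.38). The interval lay above the median at the inner Odc1 site, by a small margin, and included it at the other 10 regions.

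Against PB120, 5 of the regions could be compared, and the median ratio of PB119 to PB120 was 1.21 over 4365 regions (0.930 to 1.54). The outer Odc1 site had 21.1 against 10.5 fragments per 10000000 tags, a ratio of 2.01 (1.33 to 3.08). The Azin1 promoter had 21.6 against 10.5, a ratio of 2.05 (1.37 to 3.15). Srm had 36.8 against 22.6, a ratio of 1.63 (1.22 to 2.19), but these are different points of the region, the inner summit of PB119 and the outer one of PB120. The inner Srm summit of PB120 had 17.6. The Amd1 promoter at 1.06 (0.642 to 1.76) and the distant Azin1 site at 1.08 (0.660 to 1.80) were below the median, with intervals that included it. The Odc1 and Azin1 intervals lay above the median of all regions, and so did the Srm interval, by a small margin and between different points. The Odc1, Azin1 and Srm ratios exceeded those of 92.2%, 93.0% and 79.6% of common regions. From PB115 to PB120, where the median was 1.11 over 3777 regions, Azin1 had 1.64 (1.08 to 2.55), Srm 1.44 (1.08 to 1.95, again between an inner and an outer summit) and Odc1 1.38 (0.893 to 2.18). The distant Azin1 site had 1.20 (0.737 to 1.97) and the Amd1 promoter 0.931 (0.555 to 1.57), and all 5 intervals included the median. These intervals cover counting error alone and are not adjusted for the 21 ratios computed. The spread between libraries of the same line is not known.

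**Figure D3:**
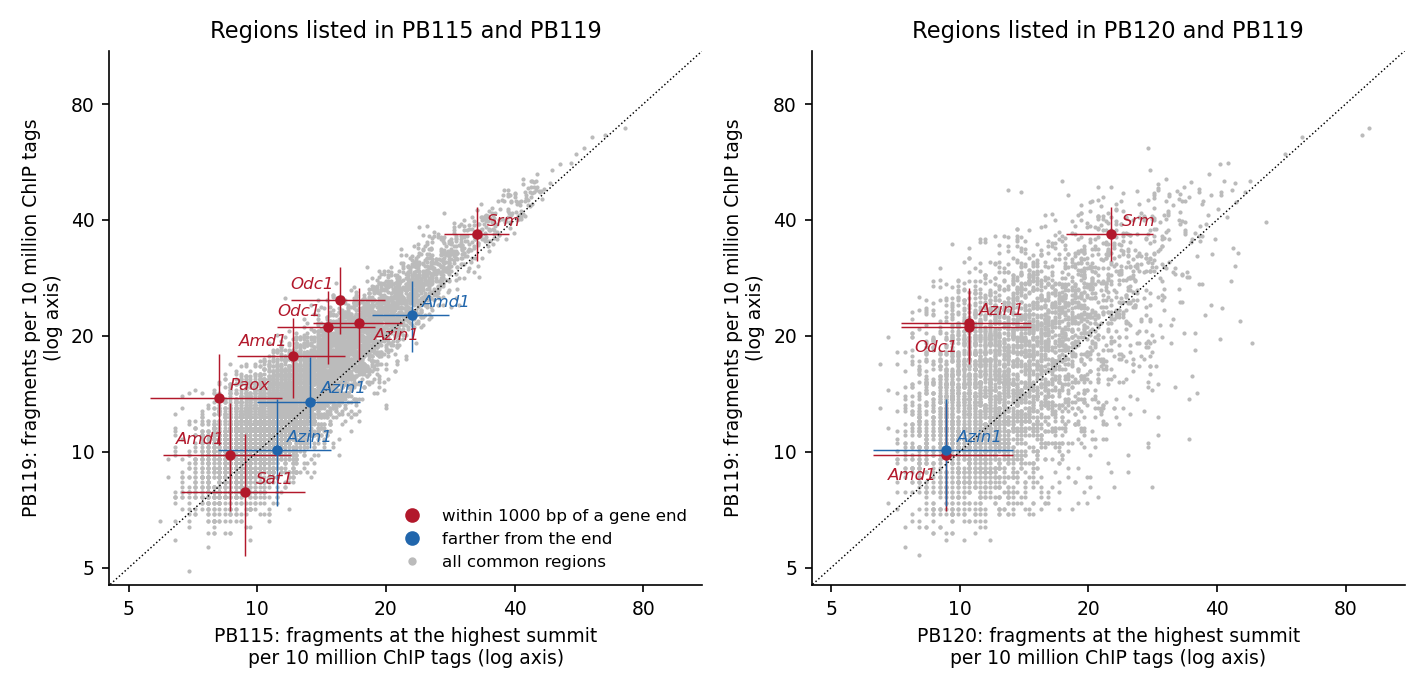
Fragments per 10000000 ChIP tags at the tallest summit of regions listed in both lines of a panel (log axes, PB119 on the y axis), for all common regions in grey and those of the polyamine genes in red (within 1000 bp of an end) or blue (farther) with exact 95% Poisson intervals; the dotted line marks equal values. The outer Odc1 site and the Azin1 promoter lie at 21.1 and 21.6 in PB119 and at 10.5 in PB120, while the Amd1 promoter lies close to the line in both panels.

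A list of 27 further genes linked to polyamines was read in the same way. PB115 had 12 of them bound, PB119 16 and PB120 11, with 8 bound in all 3 lines and 10 in none. The shares of all coding genes were 23.6%, 35.3% and 16.4% in these lines and 14.4% for all 3 lines together. The share of coding genes bound in no line was not computed. Most coding genes were unbound in each single line, so the genes bound in none are not a result about this list. The hypusine group (Eif5a, Eif5a2, Dhps and Dohh) had 3, 3 and 4 of 4 bound. It is named for a modification of the translation factor Eif5a that is made from spermidine. Dhps, which transfers the spermidine group, had folds of 14.5 in PB115 and 24.1 in PB119, with 14.9 in PB120. The genes of S-adenosylmethionine supply and methionine salvage had 6, 8 and 3 of 8 bound. Mat2a, which makes S-adenosylmethionine, had the highest mean percentile of fold in the list, with folds of 25.9, 40.2 and 14.6. Enoph1, of methionine salvage, had 13.2, 18.0 and 10.2 at a summit within 1000 bp of Hnrnpdl as well.

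Transport genes had 2, 4 and 3 of 6 bound, beside the shares of 23.6%, 35.3% and 16.4% over all coding genes, and the difference was not tested. Slc7a1, a carrier of ornithine and other basic amino acids, had folds of 31.8 in PB115 and 33.0 in PB119 (ranks 46 and 177) and 11.5 in PB120 (rank 1196). Slc3a2, the heavy chain of several amino acid carriers, had 11.8, 21.3 and 11. Of the 5 genes listed under ornithine and arginine, Oat was bound in every line, and Arg1, Arg2, Agmat and Azin2 in none. Azin2 had a summit inside the gene in all 3 lines. Oaz3, Sat2, Satl1 and Amd2, listed as other copies of the members, were bound in no line. Amd1 and Amd2 are similar in sequence, and how reads that fit both were placed is not given in the sources used here. Slc18b1 and Atp13a2 were also bound in none. Most coding genes were unbound in each line, by the shares above, so nothing particular to these genes can be read from that. The median highest fold of the bound genes of the list was 13.2, 13.6 and 10.6 in PB115, PB119 and PB120.

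**Figure D4:**
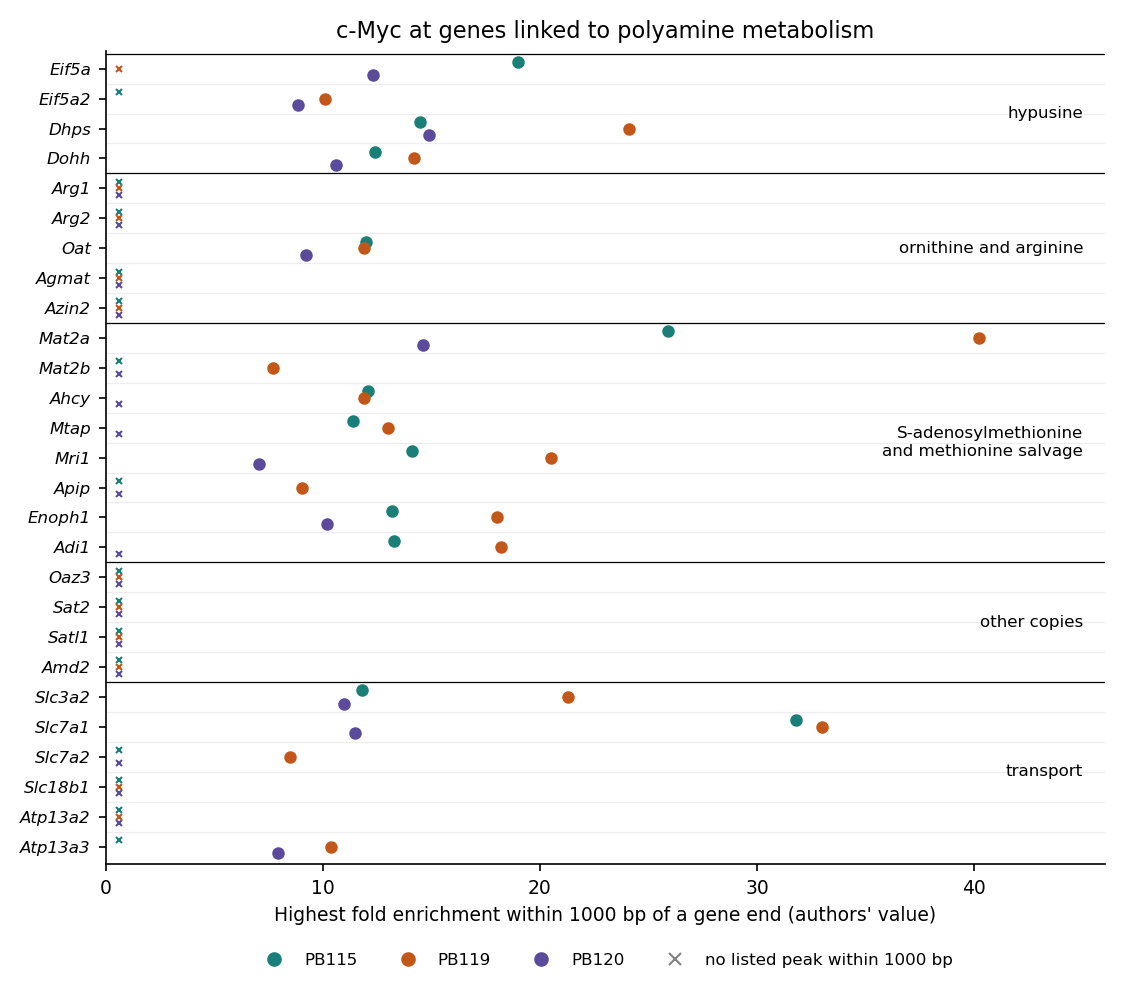
Highest fold within 1000 bp of a gene end (x axis, authors' values) for 27 genes linked to polyamine metabolism (y axis, in 5 groups), with colours for the 3 lines and crosses where no such peak was listed. Mat2a and Slc7a1 lie farthest right, and the 4 genes of the group of other copies have crosses in every line.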

How the data were processed

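Per the labels' protocols, each ChIP took 20000000 cells, fixed for 10 minutes in 1% formaldehyde and sheared by sonication, and chromatin was pulled down with a c-MYC antibody. Per the submitters' processing notes, Bowtie, SAMtools and MACS2 were used with the build mm10. Per the file headers, MACS 2.1.0.20140616 called each ChIP library alone against the input of its line, with a p-value cutoff of 1e-10, at most 1 tag per position and the larger library scaled to the smaller.

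The deposited pileup is a signal (fragment coverage at the summit) and the deposited fold enrichment a ratio, per the file headers. The deposited −log10 p-value was used for a stricter list, and the −log10 q-value deposited by the authors was not used. Pileup divided by the input to ChIP tag ratio gave whole fragments within 0.02 at 100% of peaks. Local background was recovered by reading the fold as pileup over background with 1 added to both. Poisson p-values were recomputed that way, and their median signed difference from the deposited ones was at most 0.00122 in size (−log10). Differences of opposite sign can cancel in that median, so it does not give the typical size of a difference.

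Genes, ends and promoter sequence came from RefSeq tables of GRCm38.p6, the same assembly as mm10. The gene table has no strand, so either end counts. Peaks were merged on an overlap of 1 bp, which a peak of another line can bridge. Shares of like fold used peaks within 10% of a fold. Scripts were tested on simulated data and ran in Python 3.11.15 with pandas 2.3.3, numpy 2.4.6 and scipy 1.17.1. The members and the list of 27 genes were chosen with earlier results of these data known, and gene lists were not tested. From that list the text names the bound genes of highest mean percentile and those bound in no line, and Oat as a sole exception of its group was added after its values were seen. Alternatives were windows of 500 and 5000 bp, summits inside genes, annotated starts, a p of 1e-20, equal list lengths and a reciprocal overlap of 50%.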

Additional observations from a re-analysis of the deposited data

How the results depend on the processing

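Of 48 recomputed counts, 41 stayed within 1.5 times the reported value. With annotated starts only, bound members fell to 3 in PB115, 5 in PB119, 2 in PB120 and 2 in all 3 lines. By construction this left out Srm and Azin1, which have no start in the table. Paox has starts there, but its summits lay 9078 bp from the nearest in PB115 and 9187 bp in PB119, so it was not bound. With lists of equal length PB119 had 5 bound members, losing Sms, Oaz1 and Sat1, and PB115 had 4, losing Sat1 and Paox, beside 4 in PB120, so the gap between lines fell to 1 gene. The regions at gene ends with a peak in all lines fell from 4 to 2 at a p of 1e-20 and to 0 with a reciprocal overlap of 50%, where the PB120 peak was too short against that of PB119 (at the outer Odc1 site 204 bp against 563 bp). At 1e-20 the Azin1 promoter of PB120 and the Amd1 promoter of PB115 were lost. Of 52 recomputed highest folds 3 moved beyond counting error, to 11.1 for Amd1 in PB119 at 500 bp and to 41.4 and 52.6 for Paox in PB115 and PB119 at 5000 bp, through a peak at another gene. No paired analysis was possible because each line has 1 ChIP library. Depth limits what can be said of unlisted sites, and PB120 had the fewest ChIP tags.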

Other observations

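The strongest peak near Paox lay at its neighbour Mtg1, a mitochondrial GTPase gene, and differed widely between lines. The summit was 84 bp from Mtg1 in PB115 against 94 bp in PB119 and 29 bp in PB120, and between 3259 bp and 3324 bp from the upper end of Paox. It held 176 fragments in PB115 and 192 in PB119, with folds of 41.4 and 52.6 that ranked 6 of 7830 and 8 of 13527. In PB120 it held 45 fragments with a fold of 6.24, rank 4647 of 5168. Per 10000000 ChIP tags these are 43.5, 47.1 and 13.9 fragments. Local input background was 1.24, 1.22 and 3.46 times the genome-wide level in the same order. The part of the input in the gap between the folds was not tested.

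At Eif5a, the translation factor that carries hypusine, the call depended on where the summit of a broad peak fell. This gene was singled out after its values were seen. PB119 had a peak with 185 fragments and a fold of 36.3, rank 113 of 13527, whose summit lay 1344 bp inside the gene and so beyond the 1000 bp limit. PB115 had a peak over the same stretch with 188 fragments, a fold of 19.0 and its summit 188 bp inside. PB120 divided the stretch into a summit 1328 bp inside with 86 fragments and a fold of 17.7, and one 187 bp inside with 105 fragments and a fold of 12.3. In PB120 the site with fewer fragments thus had the higher fold, with local input background at 2.08 times the genome-wide level against 4.16 times at the other.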
